A study of Mus musculus with 2 samples.

Results

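Cd83, Cd69, Cd80, Cd86, Cd40, Cd274 and Icosl, 7 surface genes of immune activation and costimulation, were examined in BM LSKs (lineage-negative, Sca1+, c-Kit+ stem and progenitor cells of the bone marrow) by RNA-seq. They are 7 of the 34745 genes in the deposited tables. They were chosen by name after their values in these same libraries were known, so every value and ratio of theirs is given as a description, with no test. The mice were Scl/tTA-BA double transgenics of strain C57BL/6, in which doxycycline holds BCR/ABL (BA) off and its withdrawal switches it on. All mice of both groups carried both transgenes. The week-0 group was the control, at 0 weeks after induction. The week-3 group expressed BCR/ABL for 3 weeks. The Scl sequences drive tTA in stem and progenitor cells, and the share of the sorted LSKs that expressed the transgene was not analysed here. Each group was 1 library made from the mixed LSKs of 3 mice, so the spread between mice cannot be seen, and a difference between the libraries compares those libraries.

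CD80 and CD86 are B7 ligands that antigen-presenting cells show to CD28 and CTLA4 on T cells, ICOSL is the B7 ligand of ICOS, and CD274 (PD-L1) is the B7 ligand of the inhibitory receptor PD-1. CD40 is a receptor of the TNF receptor superfamily that binds CD40L and signals through TRAF adaptors to NF-kappaB. CD83 marks mature dendritic cells and activated lymphocytes and holds MHC class II and CD86 at the surface by opposing the ubiquitin ligase MARCH1. CD69 is a C-type lectin that appears early on activated leukocytes and removes the sphingosine phosphate receptor S1P1 from the surface. Several of these genes are known to be switched on quickly by NF-kappaB, AP-1 or interferon signals.

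The bases just before the start of a gene are where such factors commonly bind, so the promoters are shown for the members found in the RefSeq promoter table (GRCm38.p6), which were Cd274, Cd80 and Icosl, 3 of the 7. Each line is the 250 bases before the RefSeq start, on the + strand, 5′ to 3′. Capitals mark the matches to 9 motifs searched on both strands. The windows are chr19:29367188-29367437 for Cd274, chr16:38458683-38458932 for Cd80 and chr10:78069118-78069367 for Icosl. The RefSeq start is the base after each window. It is also the start of Cd80 in the deposited tables, but lies 17 bases before their start of Cd274 and 8 bases after their start of Icosl.
Cd274: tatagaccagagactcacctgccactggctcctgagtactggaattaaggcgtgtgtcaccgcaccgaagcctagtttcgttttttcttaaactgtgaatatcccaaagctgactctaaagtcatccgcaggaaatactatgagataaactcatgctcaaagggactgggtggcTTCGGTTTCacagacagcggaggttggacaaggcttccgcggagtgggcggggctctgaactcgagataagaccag
Cd80: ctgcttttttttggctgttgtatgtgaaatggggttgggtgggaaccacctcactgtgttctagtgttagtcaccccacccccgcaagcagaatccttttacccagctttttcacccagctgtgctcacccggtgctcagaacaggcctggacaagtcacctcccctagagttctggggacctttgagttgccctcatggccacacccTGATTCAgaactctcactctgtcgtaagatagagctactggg
Icosl: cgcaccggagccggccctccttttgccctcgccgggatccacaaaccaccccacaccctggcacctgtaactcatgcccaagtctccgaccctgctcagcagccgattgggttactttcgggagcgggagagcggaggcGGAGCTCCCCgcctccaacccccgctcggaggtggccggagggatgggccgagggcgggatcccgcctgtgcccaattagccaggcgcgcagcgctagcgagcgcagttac

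The capitals in Cd274 match the core of the interferon-stimulated response element (GAAANNGAA) on the minus strand, and start 76 bases before the RefSeq start. Those in Cd80 match TGANTCA, a loose form of the AP-1 motif with any middle base, here T, 42 bases before the RefSeq start. Those in Icosl match the NF-kappaB consensus on the minus strand, 111 bases before the RefSeq start. Such matches are common. Of the 32851 promoters in the table, 7.13% held the interferon core, 6.75% the loose AP-1 form and 7.25% the NF-kappaB consensus. The other 6 motifs had no match in the 3 windows: the cAMP response element TGACGTCA (1.55% of promoters), its core TGACG (17.8%), the interferon-gamma activated site TTCNNNGAA (7.02%), the EGR motif GCGTGGGCG (0.536%), the serum response element (1.47%) and the ETS core CCGGAAG (6.91%). The search included overlaps between motifs, and TGACG lies inside TGACGTCA. The 3 windows also differed in composition. Icosl had 68.8% G and C with 23 CpG, Cd80 had 52.8% with 3 CpG and Cd274 had 50.4% with 11 CpG. Another gene, Plgrkt (674 and 483 reads at week-0 and week-3), lies 0.065 kb before the deposited start of Cd274. The Cd274 window therefore overlaps Plgrkt. A match is a description of the letters and not evidence of binding.

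Depth differed: genes received 6356164 reads at week-0 but 3886695 at week-3. Levels are therefore also given as CPM, the reads of a gene scaled to the same library total. A count of 0 allows up to 0.472 CPM at week-0 and 0.772 CPM at week-3 (3 reads). The mitochondrial share of reads was 1.24% (week-0) and 2.16% (week-3). Kit, Ly6a (Sca1) and Cd34 had 1391, 434 and 3804 reads at week-0 against 580, 199 and 1523 at week-3. RNA of Kit and Ly6a, the positive markers of the gate, was thus present in both libraries. The mouse genes Bcr and Abl1 had 371 and 395 reads at week-0 against 108 and 144 at week-3. Reads of the transgene itself were not analysed here. Intervals below are 95% counting intervals, which cover counting error only and not the differences between mice.

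Of the 6 members with at least 10 reads over both libraries, 5 were lower at week-3 by at least 2 times in CPM (Cd83, Cd69, Cd86, Cd80 and Icosl), and 0 were higher by that much. For comparison, 17.9% of the 13689 genes with at least 10 reads were lower by at least 2 times, and 11.9% were higher. With the whole counting interval past 2 times, 3 members were lower (Cd83, Cd69 and Cd86) and 0 higher, against 7.25% and 3.82% of those genes. Since the members were chosen on this comparison, these counts carry no weight as evidence. Cd274 was the only member with at least 10 reads whose level was higher at week-3, and Cd40 was near the limit of detection. Summed over the 7 genes, the level was 1602 CPM for week-0 and 424 CPM for week-3. Cd69 gave 92.0% (week-0) and 94.6% (week-3) of the reads of the members. Without it, the sum went from 128 to 22.9 CPM.

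**Figure D1:**
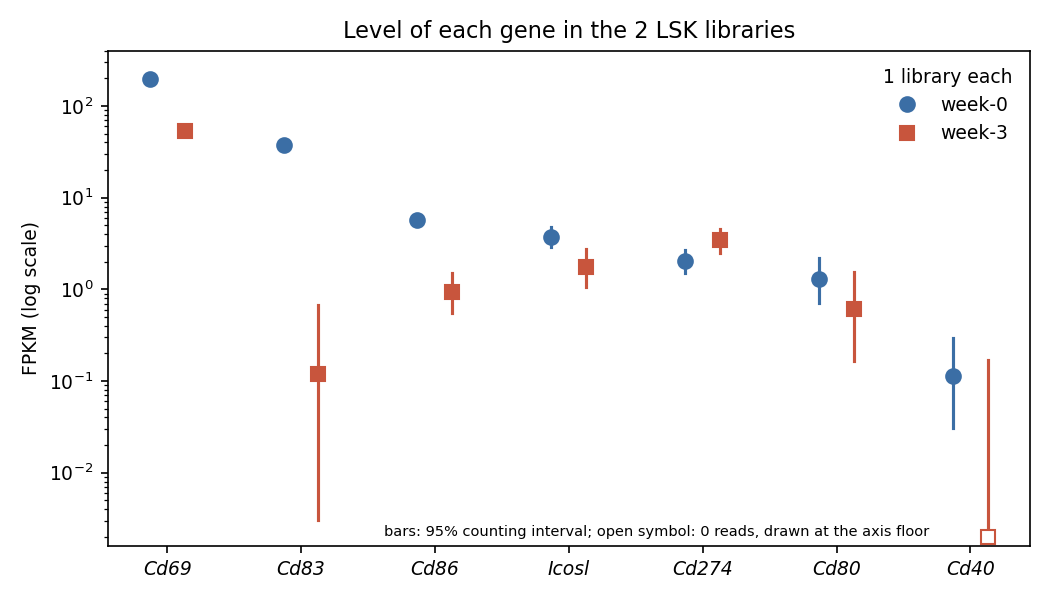
FPKM of the 7 genes (log axis) in the week-0 (blue circles) and week-3 (red squares) libraries, with 95% counting intervals as bars where they exceed the symbol; 0 reads are drawn as an open symbol at the axis floor. Cd69 went from 194 to 52.9 FPKM and Cd83 from 37.7 to 0.120 FPKM, while Cd274 went from 2.04 to 3.41 FPKM.

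Cd83 (ENSMUSG00000015396, chr13:43785107-43803130, + strand, GRCm38) had 514 reads at week-0 against 1 read at week-3. At the week-0 share, 314 reads would have been found at the depth of the week-3 library. The level was 37.7 FPKM (34.5 to 41.1) at week-0 and 0.120 FPKM (0.00304 to 0.669) at week-3. By FPKM the gene went from place 1279 to place 15394 among all genes. The ratio of week-3 to week-0 was 0.00318 (8.0e-05 to 0.0178). With a single read at week-3, the size of this ratio is poorly known, but its upper bound is far under the 2-fold limit.

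Cd69 (ENSMUSG00000030156, chr6:129267325-129275436, - strand) was the most abundant member in both libraries. It had 9370 reads at week-0 against 1560 at week-3, or 0.147% and 0.0401% of all reads on genes. Its level was 194 FPKM (191 to 198) at week-0 and 52.9 FPKM (50.3 to 55.6) at week-3. The ratio was 0.272 (0.258 to 0.287), a level 3.67 times lower. At week-3 it still stood at place 998 by FPKM, against place 251 at week-0. The interval of the Cd69 ratio does not overlap that of Cd83, and the Cd69 to Cd83 ratio of FPKM inside a library went from 5.15 to 441, a change of 85.6 times (15.3 to 3389).

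The B7 ligands did not move together. Cd86 (ENSMUSG00000022901, chr16:36603869-36666081, - strand) had 169 reads at week-0 against 17 at week-3. Its FPKM was 5.70 (4.87 to 6.63) and 0.937 (0.546 to 1.501). The ratio was 0.165 (0.0936 to 0.271), a level 6.08 times lower, with the whole interval past 2 times.

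Cd80 (ENSMUSG00000075122, chr16:38458933-38486933, + strand), which shares its receptors with Cd86 and lies 1.79 Mb from it, was a low gene with 14 reads at week-0 against 4 at week-3. Its FPKM was 1.29 (0.708 to 2.17) and 0.605 (0.165 to 1.55). The ratio was 0.467 (0.112 to 1.49), whose interval spans 1, so a difference was not detectable at this depth. At the week-0 share, 8.56 reads would have been found at week-3.

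Icosl (ENSMUSG00000000732, chr10:78069360-78079525, + strand) had 66 reads at week-0 against 19 at week-3, where 40.4 would have been found at the week-0 share. Its FPKM was 3.77 (2.91 to 4.79) and 1.77 (1.07 to 2.77). The ratio was 0.471 (0.267 to 0.794), which lies below 1 over the whole interval but not past 2 times. Cd80 and Icosl were thus the members just inside the 2-fold limit, and Cd274 was the one just outside it.

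Cd274 (ENSMUSG00000016496, chr19:29367455-29388095, + strand) had 47 reads at week-0 against 48 at week-3, where 28.7 would have been found at the week-0 share. Its FPKM was 2.04 (with an upper bound of 2.71) and 3.41 (2.51 to 4.52). The ratio was 1.67 (1.09 to 2.55), on the side opposite to every other member with at least 10 reads. An antisense gene, AC119228.1, overlaps Cd274 in the GENCODE M21 annotation. Whether the counting used strand is not given in the sources used here, so reads of the 2 genes cannot be told apart.

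Cd40 (ENSMUSG00000017652, chr2:165055627-165072948, + strand) had 4 reads at week-0 against 0 at week-3. At the week-0 share, 2.45 reads would have been found, so a difference was not detectable at this depth. Its FPKM was 0.114 (0.0310 to 0.291) at week-0, and the floor of 3 reads is worth 0.140 FPKM at week-3. The 2-sided counting interval of 0 reads, drawn in the plot of levels, reaches 0.172 FPKM. No fold is given for it.

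**Figure D2:**
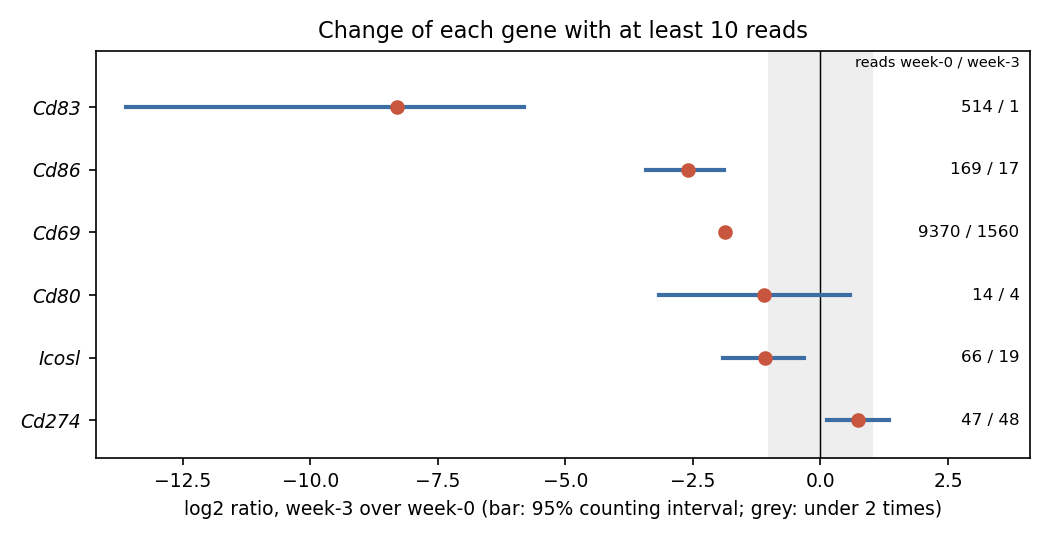
Log2 ratio of week-3 over week-0 in CPM for the 6 members with at least 10 reads, with 95% counting intervals as bars; the grey band holds ratios under 2 times. Cd83, Cd86 and Cd69 lie wholly left of the band, Icosl and Cd80 reach into it, and Cd274 lies right of 0.

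Within the libraries, the order of the members by FPKM changed. At week-0 the order was Cd69, Cd83, Cd86, Icosl, Cd274, Cd80, Cd40, and among neighbours in this order only the intervals of Cd274 and Cd80 overlapped. At week-3 it was Cd69, Cd274, Icosl, Cd86, Cd80, Cd83, Cd40, and the intervals of neighbours overlapped at each step after the first. Overlap of 2 intervals is not a test of a difference. Cd274 was thus in place 5 at week-0 and place 2 at week-3. With GENCODE M21 exon lengths instead of those behind the deposited FPKM, Cd86 and Icosl changed places at week-3, and the week-0 order was the same.

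The ratio of Cd86 to Cd274, a stimulating and an inhibitory B7 ligand, was 2.79 at week-0 and 0.275 at week-3 in FPKM, 10.2 times lower (5.13 to 20.5). The Icosl to Cd274 ratio was 1.85 and 0.520, 3.55 times lower (1.77 to 7.21). Cd86 also went further down than Icosl, with a ratio of 1.51 at week-0 and 0.528 at week-3 (2.86 times, 1.31 to 6.23). For Cd86 and Cd80 the ratio was 4.40 and 1.55, and the interval of the change (0.608 to 10.4 times) includes no change. Cd69 and Cd86 differed by 34.1 times at week-0 and 56.5 times at week-3, a change of 1.66 times whose upper bound is 2.92 and whose lower bound touches 1. The Cd69 to Cd274 ratio was 95.25 and 15.5, which is 6.13 times lower (3.9999 to 9.41). Ratios between genes of the same library do not depend on how the libraries are scaled to each other.

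**Figure D3:**
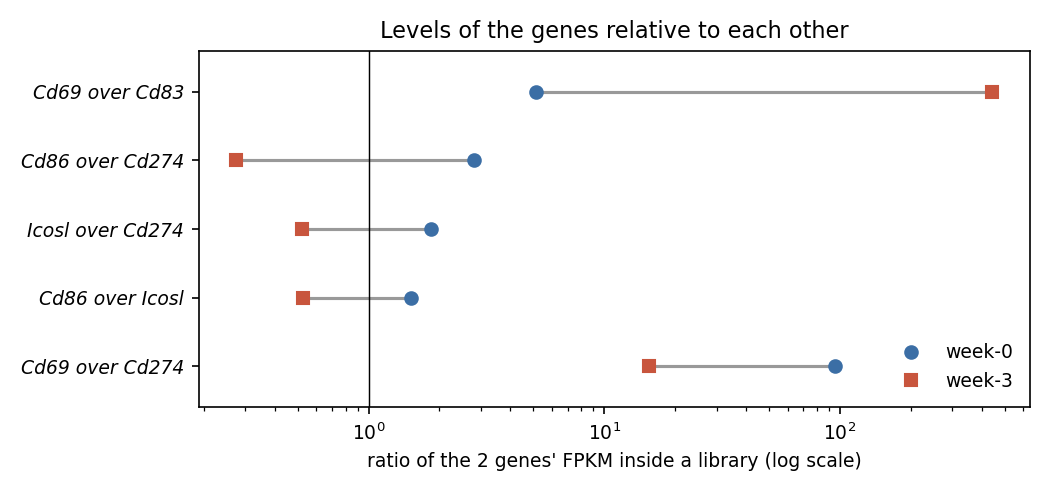
Ratio of FPKM between pairs of members inside each library (log axis), at week-0 (blue circles) and week-3 (red squares), joined by grey lines; the black line marks equal levels. The Cd69 to Cd83 ratio moved furthest, from 5.15 to 441, while the Cd86 to Cd274 ratio crossed 1, from 2.79 to 0.275.

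The receptors of the members were mostly lower at week-3 as well. Of the 10 genes listed as partners, 8 had at least 10 reads, of which 5 were lower by at least 2 times and 0 higher. The median difference in log2(FPKM + 0.1) was -1.89 for these 8 genes, and 0.05 over all genes with at least 10 reads. Of all those genes, 17.9% were lower by at least 2 times and 11.9% higher. Cd28, the receptor of both Cd80 and Cd86, had 167 reads at week-0 against 3 at week-3 (log2 ratio -5.09, -7.38 to -3.52). Ctla4, their inhibitory receptor, had 57 and 1 (-5.12, -10.45 to -2.59). Icos, the receptor of Icosl, had 50 and 7 reads (-2.13, -3.51 to -0.98). Pdcd1, which encodes PD-1, had 15 and 2 (-2.20, -5.37 to -0.09). The ligand of Cd40, Cd40lg, had 0 reads in both libraries.

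S1pr1, the receptor that CD69 removes from the surface, had 612 reads at week-0 against 38 at week-3 (log2 ratio -3.30, -3.81 to -2.83). Cd69 and S1pr1 RNA were therefore both lower at week-3. The partners that act on CD274 or CD86 protein were closer to the typical gene. Cmtm6, which keeps CD274 at the surface, had 371 and 177 reads (-0.36, -0.62 to -0.10), and Cmtm4 had 19 and 10. March8 had 36 and 20 reads (-0.14, -1.005 to 0.69), and March1 had 4 in each library.

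Other B7 and CD28 family genes gave few reads. Of 8 found in the tables, 4 had at least 10 reads, of which 2 were higher by at least 2 times and 0 lower, and 0 had the whole interval past 2 times. These were Vsir (VISTA, an inhibitory ligand), with 115 and 161 reads (log2 ratio 1.20, 0.84 to 1.55), and Pdcd1lg2 (PD-L2), with 10 and 18 reads (1.56, 0.37 to 2.84); both were named after their values were seen. Pdcd1lg2 lies 22.8 kb after Cd274 on chromosome 19. Among 16 genes of the TNF superfamily of costimulation, 12 had at least 10 reads, 5 were lower and 2 higher. Beside the counts of both lists, 17.9% of all genes with at least 10 reads were lower and 11.9% higher. Tnfrsf9 (CD137) was the 1 gene of the TNF list with the whole interval past 2 times. It had 0 reads at week-0 against 20 at week-3, which is 10.9-fold higher than a floor of 3 reads, and the counting interval of the ratio, which also covers the error of the 20 reads, starts at 8.07.

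The list of CD40 adaptors and the NF-kappaB axis was lower at week-3 in part. All 16 genes had at least 10 reads. By at least 2 times, 9 were lower, each with the whole interval past 2 times, and 0 were higher. The shares over all genes with at least 10 reads were 17.9% lower, 7.25% with the whole interval, and 11.9% higher. Of the adaptors, Traf1 had 448 and 17 reads (log2 ratio -4.01, -4.80 to -3.31). Traf2 (0.71, 0.44 to 0.98), Traf3 (-0.32), Traf5 (0.12) and Traf6 (-0.74) stayed under 2 times, as did Map3k14 (-0.32). These genes were named after their values were seen. The median was -1.59 in log2(FPKM + 0.1). Nfkbia, which encodes the inhibitor IkappaB-alpha and is itself an NF-kappaB target, had 15687 reads at week-0 against 1612 at week-3 (log2 ratio -2.57, -2.65 to -2.50). Tnfaip3 (A20), a further brake on the pathway, had 5552 and 177 (-4.26, -4.49 to -4.05). The subunit genes Rela and Nfkb2 had log2 ratios of -1.76 (-1.92 to -1.60) and -2.30 (-2.57 to -2.04).

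The list of the interferon-gamma and JAK axis upstream of Cd274, which holds inducers and brakes, showed less. Of 10, 2 were lower and 1 higher by at least 2 times, beside 17.9% and 11.9% of all genes with at least 10 reads. The median was -0.46 in log2(FPKM + 0.1). The higher gene was the receptor gene Ifngr2, at 152 and 206 reads (log2 ratio 1.15, 0.84 to 1.46), with an interval not wholly past 2 times. The 2 lower genes, both with the whole interval past 2 times, were the transcription factor Irf1, at 1168 and 293 reads (log2 ratio -1.29, -1.48 to -1.10), and Socs1, which restrains JAK signals, at 374 and 79 (-1.53, -1.90 to -1.18).

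**Figure D4:**
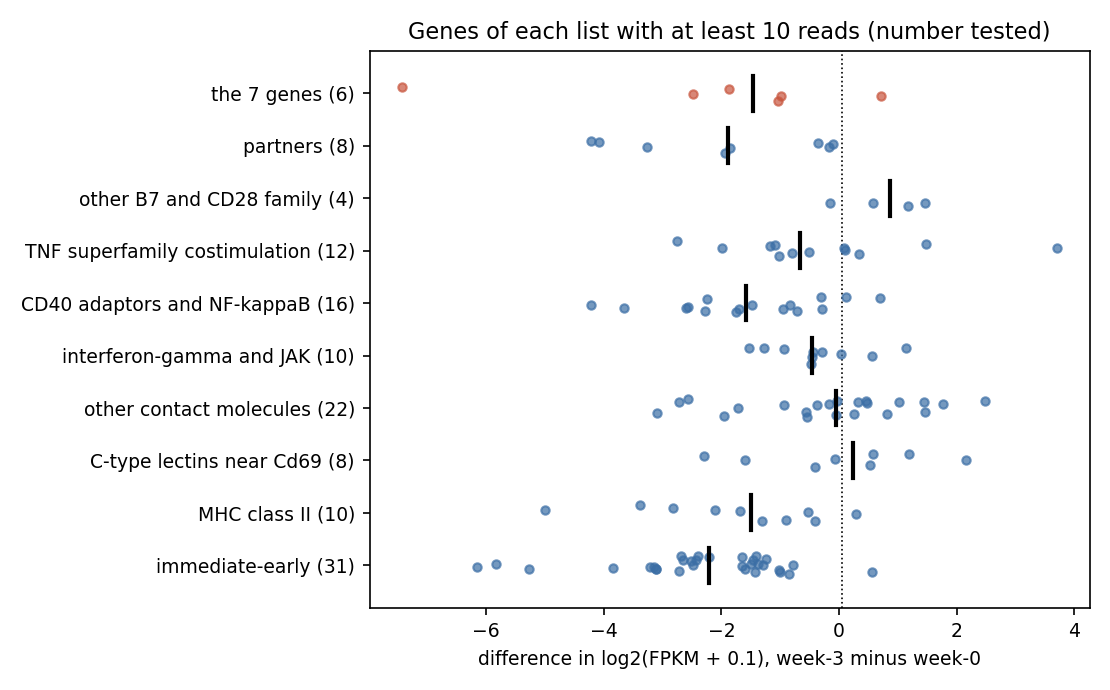
Difference in log2(FPKM + 0.1), week-3 minus week-0, of the genes with at least 10 reads in each list (points, number in brackets); black bars are list medians and the dotted line is the median of all such genes, 0.05. The NF-kappaB list has a median of -1.59 and the immediate-early list of -2.21, and both lie mostly left of 0, while the other B7 and CD28 family genes have a median of 0.87.

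The products of MHC class II genes present antigen beside the B7 ligands. Of 10 such genes, 7 were lower by at least 2 times, 5 with the whole interval past 2 times, and 0 were higher. The shares over all genes with at least 10 reads were 17.9% lower, 7.25% with the whole interval, and 11.9% higher. Cd74, the invariant chain, had 2505 reads at week-0 against 47 at week-3 (log2 ratio -5.03, -5.47 to -4.61), H2-Ab1 had 1038 and 197 (-1.69, -1.92 to -1.47), H2-Ob 890 and 125 (-2.12, -2.40 to -1.85) and H2-Aa 288 and 24 (-2.88, -3.54 to -2.27). Other surface molecules of immune contact were mixed. Of 22 with at least 10 reads, 5 were lower and 5 higher, beside 17.9% and 11.9% of all genes with at least 10 reads. Icam1, an adhesion ligand, had 1097 and 101 reads (-2.73, -3.04 to -2.44) and Slamf7 37 and 2 (-3.50, -6.60 to -1.55). Tfrc, the transferrin receptor, was higher, with 140 and 238 reads (1.48, 1.17 to 1.79), and so was the inhibitory receptor Cd200r1, with 9 and 35 (2.67, 1.58 to 3.91).

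**Figure D5:**
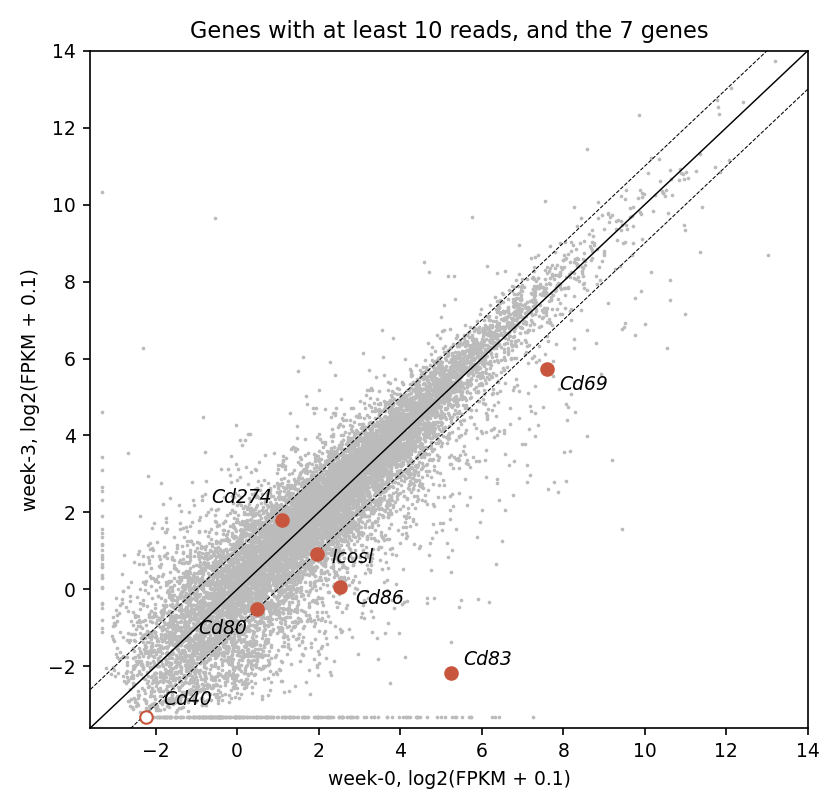
Each gene with at least 10 reads (grey) and the 7 members (labelled) by log2(FPKM + 0.1) at week-0 and week-3; the solid line marks equal levels, the dashed lines 2 times, and the open symbol is Cd40, with 4 and 0 reads. Cd83 lies far below the solid line, Cd69, Cd86, Icosl and Cd80 also lie below it, and Cd274 lies above it.

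The immediate-early genes, which many stimuli switch on within minutes, moved with the members, while markers of other cell types went both ways. Of 31 immediate-early genes 28 were lower by at least 2 times, 24 with the whole interval past 2 times, and 0 were higher. Their sum went from 49788 to 13874 CPM. The shares over all genes with at least 10 reads were 17.9% lower, 7.25% with the whole interval, and 11.9% higher. Egr1 had 41528 reads at week-0 against 2859 at week-3, Zfp36 30697 and 6802, Nr4a1 32122 and 1369, and Junb 23787 and 4612.

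Dendritic cell markers summed to 56.8 CPM at week-0 and 9.26 CPM at week-3. Of the 6 with at least 10 reads, 4 were lower, 2 with the whole interval past 2 times. Beside this and the marker counts below, 17.9% of all genes with at least 10 reads were lower and 11.9% higher. With the whole interval past 2 times, 7.25% were lower and 3.82% higher. Fscn1 gave most of the week-0 sum, with 246 reads against 7 at week-3. Itgax (8 and 8 reads, ratio 1.64) and Xcr1 (8 and 7 reads, ratio 1.43) were not lower. B cell markers summed to 77.1 and 58.1, with 5 of 6 lower, but only 1 with the whole interval past 2 times. Ms4a1, Cr2 and Blk had 9, 10 and 11 reads at week-0, and the intervals of their ratios include 1. Plasma cell markers summed to 1108 and 245, with 6 of 7 lower, 5 with the whole interval past 2 times. In that list Jchain had 5120 reads at week-0 against 96 at week-3, and Xbp1 1454 against 837. Cd79a, which is defining for B cells, had 114 reads at week-0 against 2 at week-3, while its partner Cd79b, with the most reads of the list, had 314 against 216 (ratio 1.12, 0.942 to 1.34). The genes named from the dendritic, B cell and plasma cell lists were named after their values were seen. The T cell receptor genes Cd3e, Cd3d and Cd3g had 5, 3 and 2 reads at week-0 against 0, 1 and 1 at week-3, and Lck had 313 against 100. T cell markers as a list summed to 63.6 and 32.7 CPM, mainly from Lck. NK cell markers summed to 453 and 678, nearly all from Nkg7.

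On the other side, neutrophil markers summed to 3111 and 13599 CPM, with 8 of 9 higher. Most of these reads came from Mpo (9443 and 18486), Elane (5454 and 18391) and Prtn3 (3552 and 12505), while Ly6g had 5 and 5. Mast cell and basophil markers summed to 141 and 2529, with 8 of 8 higher. Monocyte and macrophage markers summed to 247 and 882, with 1 of 5 higher, mainly from Ly6c2 (1118 and 3148 reads). Erythroid markers were lower instead, going from 785 to 67.2, with 7 of 7 lower, 4 with the whole interval past 2 times. Megakaryocyte markers went from 133 to 202, mainly from Itga2b (554 and 645 reads), with 1 of 5 lower and 0 higher. Among the LSK markers, 2 of 8 were lower with the whole interval past 2 times, and their sum went from 2355 to 1047. The part of these changes in the values of the 7 members was not tested. Fewer cells of a type and less RNA per cell cannot be told apart in bulk libraries of this kind.

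The genes whose 2 levels lay nearest to those of Cd83, by Euclidean distance in log2(FPKM + 0.1) over the 2 libraries among 12038 protein-coding genes, were Mzb1 (distance 0.804, 218 and 1 reads), Fam110c (1.20), Wnt10b (1.51), Krt8 (1.52, 214 and 0 reads) and Nr4a3 (1.82, 768 and 8 reads). Nearest to Cd69 were Kdm6b (0.226), Dnajb1 (0.262), Inka1 (0.315), Prkar1a (0.335) and Dusp2 (0.394). Kdm6b went from 215 to 46.9 FPKM, beside 194 and 52.9 for Cd69. With 2 libraries, such closeness says only that both levels were alike.

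The genes around the members did not all follow them. For Cd83, 1 of the 3 nearest genes with at least 10 reads on each side (6 in all) was lower by at least 2 times and 0 were higher. Of all genes with at least 10 reads, 17.9% were lower and 11.9% higher, and counts out of 6 were not tested against these shares. For Cd69, whose neighbours include other C-type lectin genes, 1 of 6 was lower and 2 were higher. The 2 higher ones were Clec12a, 67.3 kb away with 552 and 770 reads (log2 ratio 1.19, 1.03 to 1.35), and Clec7a with 6 and 21 reads (2.52, 1.16 to 4.12). For Cd86, 3 of 6 were lower, all on 1 side: Ildr1 at 27.9 kb (26 and 0 reads), Slc15a2 at 84.1 kb (71 and 3) and Eaf2 at 127 kb (39 and 2). The 3 on the other side of Cd86 had log2 ratios between 0.17 and 0.80. For Cd274, 1 of 6 was higher, Pdcd1lg2, while Jak2, 54.4 kb before Cd274, had 88 and 55 reads (0.03, -0.48 to 0.53). For Cd80, 1 of 6 was lower and 0 were higher. For Icosl, 2 were lower and 1 higher, and for Cd40, 0 were lower and 3 higher.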

How the data were processed

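The data were RNA-seq libraries of BM LSKs, 1 for week-0 and 1 for week-3, each from 3 mixed mice. Per the paper's methods and the labels, the authors prepared SMARTer Ultra Low Input libraries, read them from both ends on an Illumina HiSeq and mapped the reads to GRCm38 (mm10) using TopHat2 2.0.9; the counting tool, the annotation and the strand setting are not given in the sources used here. The authors deposited counts, as whole reads per gene with no normalization, and FPKM, which they scaled by gene length and by total reads on genes. The 7 members and all lists were chosen with earlier results of these data known.

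With 1 library per group edgeR's quasi-likelihood test has no residual degrees of freedom, so no p-value is given. Genes with at least 10 reads over both libraries (13689) were compared by the ratio of CPM (reads scaled to the total on genes) with a limit of 2 times, and each ratio has a 95% Clopper-Pearson interval from the binomial split of its reads. FPKM differences are on the log2(FPKM + 0.1) scale. A gene of a list was named if its whole interval was past 2 times, at most the 4 with the most reads, and partners were named whatever their values. Symbols that the tables hold as dates (March1, March8) were matched by gene ID, and 1 listed gene, Tmigd2, had no row. The level order with GENCODE M21 lengths, the neighbouring genes and the annotated terms were added after the data were seen. Scripts were tested on simulated data. Intervals came from scipy 1.17.1 under Python 3.11.15, tables from pandas 2.3.3 and figures from matplotlib 3.10.9. The alternatives used edgeR 4.0.16 and DESeq2 1.42.0 in R 4.3.3.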

Additional observations from a re-analysis of the deposited data

How the results depend on the processing

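With TMM scaling the log2 ratios of all genes shifted by -0.11, and with median-of-ratios scaling by -0.09; 5 members were lower and 0 higher under both. A fold limit of 1.5 left 5 members lower and made 1 higher (Cd274), and a limit of 4 left 2 lower (Cd83 and Cd86). Without a minimum beyond 1 read, 6 of 7 were lower, Cd40 included, and with at least 50 reads 4 of 5. In an edgeR exact test with an assumed biological coefficient of variation of 0.1, 4 members were lower (Cd83, Cd69, Cd86 and Icosl), and with 0.4 only 1 was (Cd83); neither value can be estimated from 1 library per group. Among all genes, 2455 were lower and 1633 higher. The counts that differed from these by over 1.5 times were 195 and 52 with the coefficient at 0.4, 1110 and 415 with the limit of 4, 3692 and 3362 with the limit of 1.5, 5120 and 3920 with at least 1 read, and 1317 and 917 with at least 50 reads. Of 24 alternative log2 ratios of members, 20 lay within the counting interval, 4 moved and 0 changed sign; Cd83 had a difference of -5.11 in log2(FPKM + 1), Cd86 of -1.79, and Cd69 a log2 ratio of -1.99 with TMM and -1.97 with median-of-ratios scaling. Of 30 alternative medians of lists, 27 held and 3 moved, namely the partners (-0.95 with a pseudocount of 1 and -2.60 with at least 50 reads) and the C-type lectins (0.86 with at least 50 reads). Leaving out a replicate was not possible with 1 library per group.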

Other observations

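All 7 members carry the annotation "external side of plasma membrane" in the deposited tables. Of the 187 other genes of that term with at least 10 reads, 62 (33.2%) were lower at week-3 by at least 2 times and 36 (19.3%) higher, with a median difference of -0.27 in log2(FPKM + 0.1). For "positive regulation of T cell activation", which holds 5 members, 41 of 119 other genes (34.5%) were lower and 11 (9.24%) higher, with a median of -0.45. In the pathway of cell adhesion molecules, also with 5 members, 30 of 71 other genes (42.3%) were lower and 6 (8.45%) higher, with a median of -0.58. For "adaptive immune response", "T cell activation" and "positive regulation of lymphocyte activation", 32.0%, 29.8% and 35.6% of the other genes were lower. The shares higher were 11.9%, 9.51% and 7.47%. Over all genes with at least 10 reads, 17.9% were lower and 11.9% higher. The terms were chosen after the data were seen, the genes of a term overlap those of the others, and the shares were not tested.

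Of 18 C-type lectin genes of the Cd69 region of chromosome 6, 8 had at least 10 reads, of which 2 were lower and 2 higher by at least 2 times. Of all genes with at least 10 reads, 17.9% were lower and 11.9% higher. The sum of the list was 112 CPM at week-0 and 225 CPM at week-3. Clec12a made up most of it. Cd69 itself had 1474 and 401 CPM.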
